A study of Mus musculus with 9 samples.

Results

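The zinc finger genes examined here are those whose mouse symbol is Zfp followed by a number and whose transcripts averaged at least 1 FPKM in scramble cells. FPKM is the number of sequenced fragments scaled to transcript length and library size. Of 24318 genes in the deposited tables, 368 carry such a symbol and 306 met the level rule, so 62 were left out. The members were thus chosen by their mean FPKM in the 3 scramble libraries of the EXOSC3 table. Those same libraries are the baseline of the tests, and the scramble levels of the members are therefore given as a description. Just inside the limit were Zfp773 at 1.04 FPKM, Zfp14 at 1.07 FPKM and Zfp112 at 1.11 FPKM. Just outside it were Zfp429 at 0.979 FPKM, Zfp786 at 0.920 FPKM and Zfp91Cntf at 0.871 FPKM. Of the 306 members, 305 passed the filter for testing in each table, and Zfp773 did not.

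Zfp is a naming prefix rather than a single family, and most of its members encode proteins with tandem C2H2 zinc fingers, small folds in which a pair of cysteines and a pair of histidines hold a zinc ion and in which side chains of a helix read DNA bases. The largest subgroup carries an N-terminal KRAB box, which recruits the corepressor TRIM28 (KAP1) and with it histone methyltransferases and heterochromatin proteins, and these proteins are known for silencing retroelements and imprinted loci. Many KRAB genes lie in clusters that grew by tandem duplication. Others work outside silencing, as promoter-binding activators, as chromatin cofactors, or, in the CCCH type, as RNA-binding proteins that promote mRNA decay.

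The study depleted EXOSC3, a cap subunit of the RNA exosome that degrades and trims RNA from its 3' end, or DDX1, a putative RNA helicase, in N2A cells, a mouse neuroblastoma line. The groups were cells transfected with scramble siRNA, with siRNA to EXOSC3 (siEXOSC3) or with siRNA to DDX1 (siDDX1), with 3 biological replicates each, and all groups shared the transfection. Exosc3 stood at 45.8, 43.8 and 42.7 FPKM in scramble and at 6.84, 7.68 and 6.01 FPKM in siEXOSC3. Ddx1 stood at 129.6, 126.4 and 119.1 FPKM in scramble and at 28.0, 28.7 and 34.8 FPKM in siDDX1. Thus 15.5% and 24.4% of the targeted transcripts were left, and the groups did not overlap (exact permutation p = 0.1 for each, the smallest that 3 libraries against 3 allow). Of 13 sympathoadrenal neuroblast markers, 11 were at or above 1 FPKM in every scramble library, whereas the 5 fibroblast markers summed to between 0.839 and 1.31 FPKM, the 5 leukocyte markers to between 0.784 and 2.18 FPKM and the 6 glial markers to between 3.06 and 3.64 FPKM in all libraries. The 13 neuroblast markers summed to between 534 and 591 FPKM in scramble and to between 857 and 893 FPKM in siEXOSC3, and 7 of the 11 tested rose and 0 fell. In the siDDX1 table they summed to between 530 and 584 FPKM in scramble and to between 531 and 596 FPKM in siDDX1. There 1 of the 11 tested rose, Gap43, and 0 fell, while 9 had a log2 fold change below 0. The part of these marker levels in the Zfp results was not tested. A lower FPKM in a bulk culture cannot tell fewer cells that express a gene from less RNA per cell.

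To show what the members look like in sequence, promoters of 3 genes that stand out below are printed, from RefSeq on GRCm38.p6, each running from 250 bases before to 50 bases after the annotated start. They were chosen after their values were seen. Zfp950 fell in both knockdowns (chr19:61140791-61141090, minus strand), Zfp820 had the largest fall in siDDX1 (chr17:21845710-21846009, minus strand), and Zfp467 rose in both (chr6:48445041-48445340, minus strand). Capitals mark the CCAAT box (CCAAT on either strand, so also ATTGG) and the GC box (GGGCGG on either strand).
Zfp950: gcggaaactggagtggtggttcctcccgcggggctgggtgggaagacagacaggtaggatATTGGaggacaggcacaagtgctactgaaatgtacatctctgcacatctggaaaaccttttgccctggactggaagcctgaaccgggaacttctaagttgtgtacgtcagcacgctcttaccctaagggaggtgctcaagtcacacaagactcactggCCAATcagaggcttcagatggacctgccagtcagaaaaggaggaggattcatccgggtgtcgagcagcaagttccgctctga
Zfp820: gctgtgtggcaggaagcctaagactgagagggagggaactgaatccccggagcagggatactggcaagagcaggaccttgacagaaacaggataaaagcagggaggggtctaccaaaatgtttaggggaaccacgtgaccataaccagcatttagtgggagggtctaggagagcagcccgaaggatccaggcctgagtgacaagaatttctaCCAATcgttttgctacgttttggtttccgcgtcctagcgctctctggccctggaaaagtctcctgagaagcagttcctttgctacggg
Zfp467: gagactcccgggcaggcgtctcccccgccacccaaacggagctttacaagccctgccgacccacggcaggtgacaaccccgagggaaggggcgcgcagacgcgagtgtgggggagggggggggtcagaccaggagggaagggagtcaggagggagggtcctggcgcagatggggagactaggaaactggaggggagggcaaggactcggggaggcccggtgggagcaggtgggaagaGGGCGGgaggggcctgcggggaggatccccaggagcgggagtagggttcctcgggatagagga

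Promoter windows of 253 members were found by symbol, 310 windows in all, since a gene can have several starts. CCAAT was present in 46.5% of the member windows and in 37.4% of all 32851 promoter windows of the same length. GGGCGG was present in 44.8% against 35.7%, and TATAAA in 7.10% against 13.6%. The median window held 15 CpG among members and 7 among all promoters. The windows of all promoters, from 27025 genes, were not limited to expressed genes, whereas the members were chosen by their level. The part of expression in these differences was not tested. The KRAB members had CCAAT in 52.3% and GGGCGG in 33.7% of 172 windows, whereas members without a KRAB box had CCAAT in 39.2% and GGGCGG in 60% of 130 windows. Of 84 windows of members that fell in at least 1 knockdown, 54.8% held CCAAT and 44% held GGGCGG. ACTACAAT, the core of the ZNF143 motif, was in 3.55% of member windows and 0.737% of all windows, and TGACGTCA, the cAMP response element, was in 3.55% and 1.79%. Each string was searched on both strands, and these shares are descriptions of letters and not of bound sites.

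The coding sequences show the other feature of the group, the repeated finger. Below is the last C2H2 finger of 3 neighbouring genes on chromosome 17 that fell in at least 1 knockdown, and of Zfp820, which lies some distance away on the same chromosome (NCBIM37, the sequence of mm9, each read 5' to 3' on the coding strand). Capitals mark the codons of the zinc-binding cysteines and histidines. The positions are chr17:56004502-56004564 (minus strand) for Zfp119a, chr17:56078009-56078071 (minus strand) for Zfp119b, chr17:56037924-56037986 (plus strand) for Zfp959 and chr17:21955774-21955836 (minus strand) for Zfp820.
Zfp119a: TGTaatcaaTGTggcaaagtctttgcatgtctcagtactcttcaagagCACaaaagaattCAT
Zfp119b: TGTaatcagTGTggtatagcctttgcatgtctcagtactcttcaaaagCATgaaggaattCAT
Zfp959: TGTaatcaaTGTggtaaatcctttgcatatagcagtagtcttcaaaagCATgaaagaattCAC
Zfp820: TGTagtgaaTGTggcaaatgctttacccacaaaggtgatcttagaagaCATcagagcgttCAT

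Zfp119a and Zfp119b had identical bases at 55 of 63 positions, Zfp119b and Zfp959 at 54, and Zfp119a and Zfp959 at 52, while Zfp820 shared between 36 and 41 with the other genes. Such likeness matters for the measurement, because reads from near-identical stretches can be split between genes. The share of 50-base words of the coding transcript that also occur in another coding gene was 17.3% for Zfp119a, 27.5% for Zfp119b and 23.6% for Zfp959, and it was 1.89% for Zfp820. How far this affected their levels was not tested. Over 296 members with a coding transcript in GENCODE vM1, 168 shared no such word and 16 shared over 30%. Of the 211 tested members with at most 1% of words shared, 48 fell in siEXOSC3 by the test described below (22.7%, median log2 fold change -0.108) and 16 in siDDX1 (7.58%, median -0.089), against 23.0% and 10.8% over all members, with medians of -0.129 and -0.118, and 15.7% and 5.03% over all genes. Of the 16 with over 30% shared, 4 fell in siEXOSC3 and 3 in siDDX1, with medians of -0.190 and -0.191. The coding transcripts held between 0 and 36 C2H2 fingers by a pattern search, with a median of 10. A KRAB box was found in 169 members (median 12 fingers) and none in 127 (median 7 fingers), 11 held a SCAN box, and Zfp651 held a BTB domain. The 297 members with a position lay on 20 chromosomes, with 78 on chromosome 7 and 41 on chromosome 17.

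In scramble cells the members were expressed at low to moderate levels, from 1.04 to 96.1 FPKM with a median of 7.40 FPKM, against a median of 14.1 FPKM over the 11242 genes tested in the EXOSC3 table. No member was at 0 in any library. The highest was Zfp207, a kinetochore and spindle protein that binds BUB3, at 94.5, 98.4 and 95.3 FPKM. Next were Zfp638, an RNA- and DNA-binding protein linked to silencing of foreign DNA, with a mean of 63.1 FPKM, and Zfp106, an RNA-binding protein needed by motor neurons, with a mean of 54.9 FPKM. The other 7 of the 10 highest were Zfp62, Zfp655, Zfp36l2, Zfp706, Zfp146, Zfp330 and Zfp451, with means between 38.7 and 52.3 FPKM. None of these 10 carries a KRAB box, and the KRAB members reached at most 26.8 FPKM, with a median of 6.60 FPKM.

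In siEXOSC3, many more Zfp transcripts fell than rose. Of 305 members tested, 70 fell and 8 rose (limma, adjusted p under 0.05), whereas 227 did not pass. Thus 23.0% of the members fell and 2.62% rose, against 15.7% and 16.7% of all 11242 genes tested. The median log2 fold change of log2(FPKM + 1) was -0.129 over the members and -0.014 over all genes, and 214 of the 305 members had a value below 0. All 3 siEXOSC3 libraries lay below all 3 scramble libraries for 112 members (36.7%) and above them for 20, where the shares over all genes were 25.9% and 23.8%. The count of members that passed depended on single libraries. Against 78 in all, it was 32 without scramble replicate 1 (29 fell), 41 without scramble replicate 2, 46 without scramble replicate 3, 42 without siEXOSC3 replicate 1 and 102 without siEXOSC3 replicate 2 (16 of them rose, against 8).

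In siDDX1 the falls also outnumbered the rises, with fewer genes past the threshold. Of 305 members tested, 33 fell and 4 rose, which is 10.8% and 1.31%, against 5.03% and 5.61% of all 11104 genes tested. The median log2 fold change was -0.118 over the members and -0.001 over all genes, and 224 of the members had a value below 0. All 3 siDDX1 libraries lay below scramble for 96 members (31.5%) and above for 17, where the shares over all genes were 17.8% and 17%. The count of 37 members that passed moved by over 1.5 times with each library left out. It was 1 without scramble replicate 1, 13 without replicate 2 and 4 without replicate 3 of scramble. It was 12 without siDDX1 replicate 1, 12 without replicate 2 and 95 (83 fell and 12 rose) without replicate 3. Both knockdowns were set against the same scramble cells, so the 2 sets of changes are not independent of each other.

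**Figure D1:**
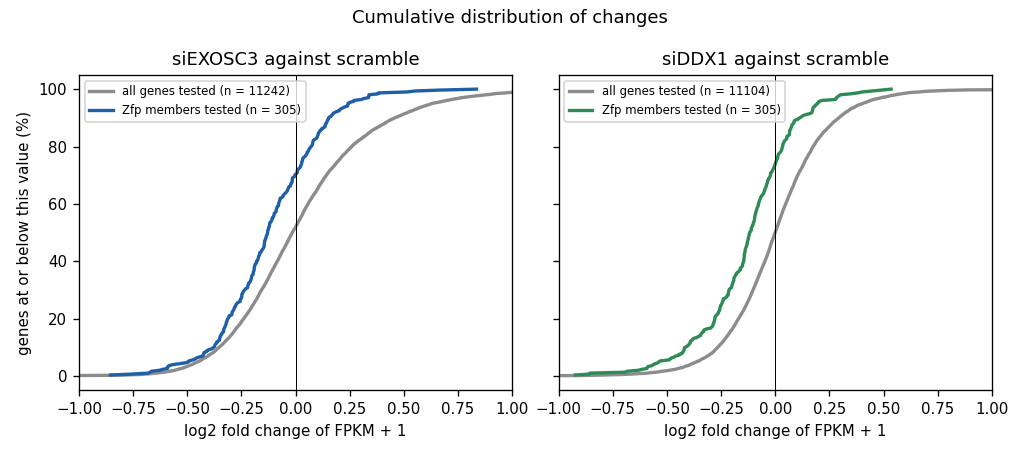
Cumulative share of genes (vertical axis, percent) at or below each log2 fold change of FPKM + 1 (horizontal axis, cropped at -1 and 1) for siEXOSC3 and siDDX1 against scramble, with all genes tested in grey and the 305 Zfp members tested in colour. The member curves lie to the left of the grey curves, with medians of -0.129 and -0.118 against -0.014 and -0.001 over all genes.

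The shift was small and was seen in each knockdown library. The median log2 difference of the members from the scramble mean was -0.097, -0.111 and -0.154 in siEXOSC3 replicates 1, 2 and 3, and -0.172, -0.099 and -0.065 in siDDX1 replicates 1, 2 and 3. Each scramble library, set against the other two, had a median of -0.007, 0.050 and -0.050 in the EXOSC3 table and of -0.005, 0.052 and -0.054 in the DDX1 table. All knockdown medians thus lay below all scramble medians, but siDDX1 replicate 3 lay only slightly below scramble replicate 3. Over all genes tested the knockdown medians lay between -0.020 and 0.005. In summed FPKM the members reached 3268, 3341 and 3181 in scramble and 2972, 2957 and 2875 in siEXOSC3. The sums in the DDX1 table were 3242, 3315 and 3143 in scramble and 2784, 2964 and 3032 in siDDX1.

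**Figure D2:**
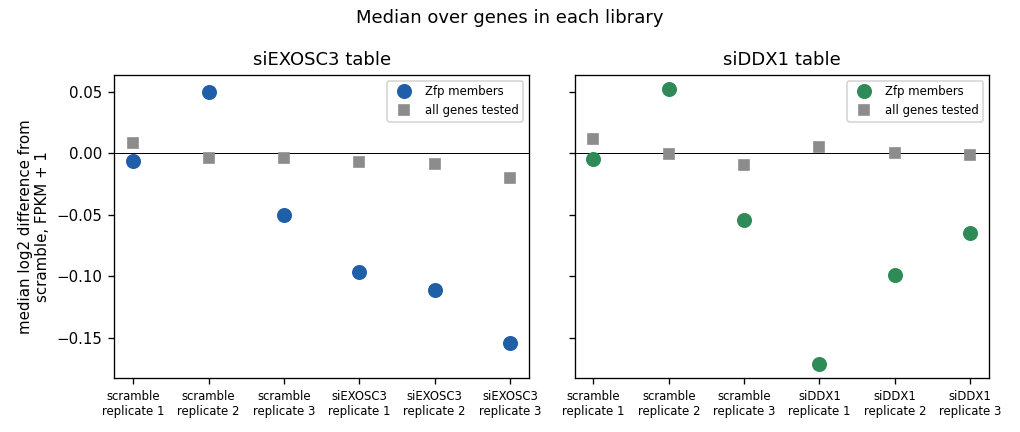
Median log2 difference from scramble (vertical axis, FPKM + 1) in each of the 6 libraries of each table, with circles for the Zfp members and grey squares for all genes tested; knockdown libraries are set against the scramble mean and each scramble library against the other two. The members lie between -0.172 and -0.065 in the knockdown libraries and between -0.054 and 0.052 in scramble, and the grey squares stay near 0.

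The calls are given here by scramble level, which is also the value that chose the members and the baseline of each change, so the bins are a description. Of the 37 members at or above 20 FPKM in scramble, 16 fell in siEXOSC3 (43.2%) and 9 in siDDX1 (24.3%), against 19.8% and 5.32% of all 4376 genes tested at that level. At that level 0 of these members rose, against 12.5% of all genes in siEXOSC3 and 6.15% in siDDX1. Between 5 and 20 FPKM, 48 of 173 members fell in siEXOSC3 (27.7%) and 21 in siDDX1 (12.1%), against 18.2% and 5.78% of all genes at that level, while 6 and 3 members rose, against 15.6% and 5.31%. Between 2 and 5 FPKM, 6 and 3 of 76 members fell (7.89% and 3.95%), near the 6.28% and 4.06% of all genes there, and 2 and 1 rose, against 23.3% and 5.20%. Under 2 FPKM, 0 of the 19 members tested passed in either direction by limma, with medians of 0.018 and 0.000. Of all genes between 1 and 2 FPKM, 25.1% rose and 2.05% fell in siEXOSC3, and 3.96% rose and 1.72% fell in siDDX1. Only the first of these shares would give more than 1 of 19 members. With 1 library left out, the falls at or above 20 FPKM ran from 7 without scramble replicate 1 to 18 without siEXOSC3 replicate 2 in siEXOSC3, and from 0 without scramble replicate 1 to 19 without siDDX1 replicate 3 in siDDX1, where 3 then rose. Between 5 and 20 FPKM the same fits gave the lowest and highest counts, 20 and 59 in siEXOSC3 and 1 and 51 in siDDX1. The pseudocount of 1 shrinks the changes of the lowest genes, so the bins are not compared in size of change.

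The largest falls in siEXOSC3 included KRAB genes with known roles in silencing. Zfp568, which represses a placental Igf2 transcript and is needed in early mouse development, stood at 9.44, 8.27 and 9.31 FPKM in scramble and at 5.22, 5.62 and 3.11 FPKM in siEXOSC3. Every siEXOSC3 library lay below every scramble library, and the mean was 51.6% of scramble (log2 fold change -0.85, SE 0.169, limma adjusted p = 0.00818). In siDDX1 it stood at 5.45, 5.99 and 8.55 FPKM, overlapping the scramble libraries, and did not pass (log2 fold change -0.39, adjusted p = 0.109).

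Zfp809, which recognises the primer binding site of murine leukaemia viruses and silences them, stood at 14.2, 13 and 16.1 FPKM in scramble and at 8.37, 9.36 and 6.79 FPKM in siEXOSC3. In the DDX1 table it stood at 14.1, 12.9 and 15.9 FPKM in scramble and at 8.14, 9.16 and 11.1 FPKM in siDDX1. The groups did not overlap in either table, and it fell in both (log2 fold changes -0.76, adjusted p = 0.00391, and -0.55, adjusted p = 0.0248 by limma). Of the 6 imprint and retroelement repressors listed, all were tested, 3 fell in siEXOSC3 and 2 in siDDX1, against 15.7% and 5.03% of all genes, and 0 rose. Besides Zfp568 and Zfp809, Zfp445, a regulator of imprinted loci, fell in siEXOSC3 (from 25.1, 26.4 and 23.4 FPKM to 19.8, 18.6 and 19.6 FPKM, log2 fold change -0.35, limma adjusted p = 0.00851), and Zfp932, a repressor of endogenous retroviruses that shares 55.4% of its 50-base words with another gene, fell in siDDX1 (from 25.9, 26.9 and 26.1 FPKM to 17, 19.5 and 23.2 FPKM, log2 fold change -0.40, limma adjusted p = 0.0445).

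Zfp950 (chr19:61192870-61195084, minus strand, NCBIM37) was among the 8 largest falls in both knockdowns. It stood at 14.9, 14.3 and 14.5 FPKM in scramble and 9.47, 8.47 and 8.19 FPKM in siEXOSC3, and at 14.7, 14.2 and 14.3 FPKM in scramble and 6.28, 7.17 and 9.43 FPKM in siDDX1. The scramble values were tightly grouped and lay above every knockdown value, with log2 fold changes of -0.68 (SE 0.0757, limma adjusted p = 0.00106) and -0.85 (SE 0.124, adjusted p = 0.00814). Its annotated model is short, holds no finger by the pattern used, and overlaps 5830428H23Rik on the same strand, so the reads of the 2 genes may not be told apart. On this short model Zfp950 was counted among the members without a KRAB box. Zfp65 fell from 25.4, 27.2 and 24.6 FPKM to 16.9, 15.5 and 15 FPKM in siEXOSC3 and, in its own table, from 25.2, 27.0 and 24.3 FPKM to 19.0, 22.6 and 17.7 FPKM in siDDX1 (log2 fold changes -0.67 and -0.36, limma adjusted p = 0.00104 and 0.0458). No position was assigned to Zfp65 or to Zfp729b, another gene among the 8 largest falls in siEXOSC3 (log2 fold change -0.59).

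The other largest falls in siEXOSC3 were the KRAB genes Zfp959, Zfp101 and Zfp119b, all on chromosome 17, with log2 fold changes of -0.67, -0.63 and -0.61 (limma adjusted p = 0.00732, 0.00255 and 0.00406). Each of them had non-overlapping groups in both tables and fell in siDDX1 too, by 0.57, 0.54 and 0.42 on the log2 scale (limma adjusted p = 0.0364, 0.0446 and 0.0268).

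In siDDX1, the largest fall was that of Zfp820 (chr17:21953843-21982726, minus strand, NCBIM37), a KRAB gene with 12 fingers. It stood at 7.28, 8.45 and 7.75 FPKM in scramble and at 3.30, 3.44 and 4.26 FPKM in siDDX1. The mean was 46.8% of scramble and the groups lay far apart relative to their spread (log2 fold change -0.92, SE 0.103, limma adjusted p = 0.00452), and the call was kept with each library left out in turn. In siEXOSC3 it fell less, from 7.33, 8.51 and 7.84 FPKM to 5.76, 6.01 and 6.42 FPKM (log2 fold change -0.33, limma adjusted p = 0.0192).

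On the same chromosome, Zfp760 (chr17:21844708-21862603, plus strand) stood at 7.46, 7.32 and 7.64 FPKM in scramble and at 3.17, 3.14 and 4.91 FPKM in siDDX1 (log2 fold change -0.86, limma adjusted p = 0.0113). Zfp119a, Zfp931, Zfp961, Zfp882 and Zfp758, each a KRAB gene, completed the 8 largest falls. Their log2 fold changes lay between -0.69 and -0.59, with limma adjusted p between 0.0135 and 0.0376. In each of the 8, siDDX1 replicate 3 was the highest of the 3 knockdown values and still lay below the scramble values. Zfp119a was past the threshold in siDDX1 alone (log2 fold change -0.26 and limma adjusted p = 0.168 in siEXOSC3, where the groups overlapped), and the difference between the knockdowns was not tested. Zfp961 overlaps Cyp4f18 on the opposite strand and Zfp882 overlaps Zfp617 on the same strand, and the library preparation did not keep strand.

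The members that rose were few, and 4 of them rose in both knockdowns. Zfp467, a C2H2 protein known from osteoblast and adipocyte differentiation, stood at 7.49, 8.53 and 7.09 FPKM in scramble and at 12.8, 10.9 and 14.9 FPKM in siEXOSC3. In the DDX1 table it stood at 7.43, 8.47 and 7.01 FPKM in scramble and at 13.3, 11 and 10.4 FPKM in siDDX1. No groups overlapped, and the log2 fold changes were 0.67 (SE 0.116, limma adjusted p = 0.00525) and 0.54 (SE 0.107, adjusted p = 0.021). Zfp512 had the narrowest scramble spread of these, at 12.9, 12.9 and 13 FPKM, and rose to 19.1, 18.7 and 20.5 FPKM in siEXOSC3 and, from 12.8 FPKM in each scramble library of the DDX1 table, to 17, 17.7 and 16.4 FPKM in siDDX1 (log2 fold changes 0.55 and 0.38, limma adjusted p = 0.00155 and 0.0119). Zfp395 and Zfp94 rose as well, with log2 fold changes of 0.51 and 0.38 in siEXOSC3 and of 0.49 and 0.35 in siDDX1 (limma adjusted p between 0.0112 and 0.0421). The calls of Zfp94 passed in 2 of 6 fits with a library left out in siEXOSC3 and in 1 of 6 in siDDX1.

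Zfp9 (chr6:118411968-118429338, minus strand), a KRAB gene, had the largest rise in siEXOSC3. It stood at 7.76, 8.20 and 7.65 FPKM in scramble and at 14.1, 14.9 and 15.5 FPKM in siEXOSC3, which is 188.5% of scramble (log2 fold change 0.84, SE 0.0716, limma adjusted p = 0.000522). In siDDX1 it went the other way, from 7.70, 8.13 and 7.56 FPKM to 5.24, 6.80 and 6.24 FPKM, all below scramble but not past the threshold (log2 fold change -0.32, limma adjusted p = 0.0724). Zfp941, Zfp358 and Zfp27 were the other rises in siEXOSC3, each with a log2 fold change of 0.34 (limma adjusted p between 0.023 and 0.0373), and their siDDX1 values overlapped scramble. With a library left out, the siEXOSC3 calls of Zfp941 and Zfp358 passed in 3 of 6 fits each and that of Zfp27 in 1 of 6. Zfp27 overlaps Zfp420 on the opposite strand.

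**Figure D3:**
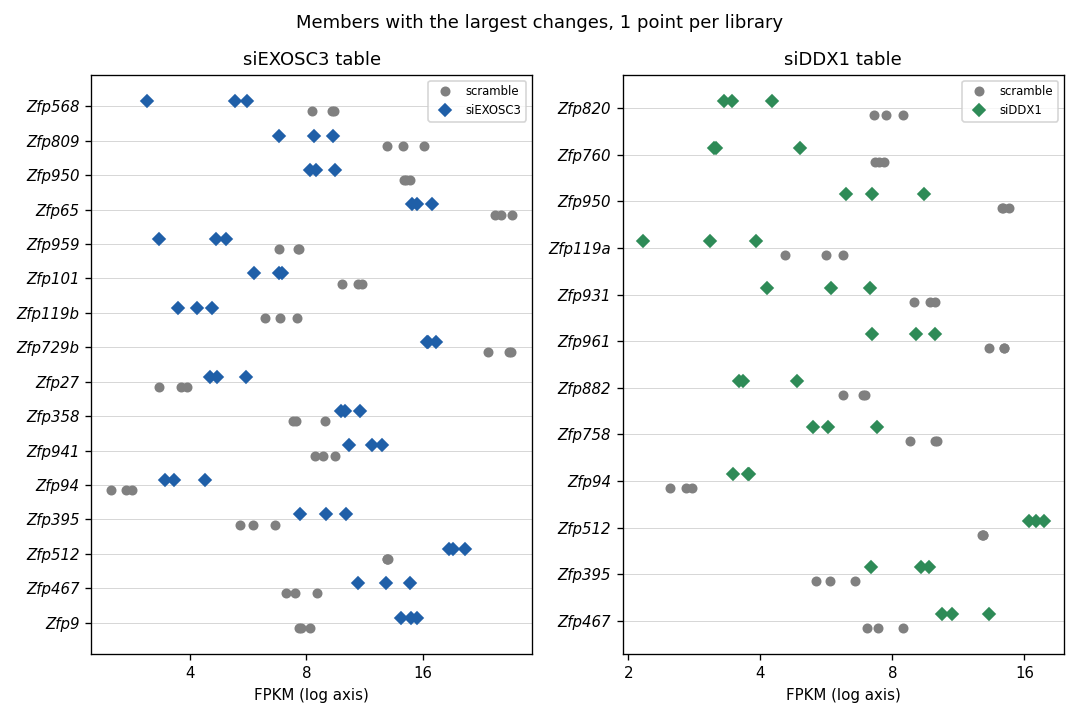
FPKM (horizontal axis, log scale) of the members with the largest falls and rises, 1 row per gene and 1 point per library, with grey circles for the 3 scramble libraries and coloured diamonds for the 3 siEXOSC3 (left) or siDDX1 (right) libraries. In every row the groups do not overlap, as the choice of these genes required; Zfp9 rose to 188.5% of scramble in siEXOSC3 and Zfp820 fell to 46.8% in siDDX1.

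There were 25 members past the threshold in both knockdowns, 21 that fell in both and 4 that rose in both, and none went in opposite directions. Because the scramble libraries were common to the 2 comparisons, nothing is read from this count. Of 20 calls among the named genes in siDDX1, between 1 (without scramble replicate 1) and 20 (without siDDX1 replicate 3) were kept with a library left out, and 19 with the replicate block. Of 35 such calls in siEXOSC3, between 20 (without scramble replicate 1) and 33 (without siEXOSC3 replicate 2) were kept, and 27 with the replicate block. Genes named only for a largest change in 1 knockdown were counted in that knockdown alone. The siDDX1 calls of Zfp65 and Zfp119b are therefore not among the 20, and the siEXOSC3 call of Zfp820 is not among the 35. The 8 largest falls in siEXOSC3 passed in all 6 fits with a library left out. In siDDX1, Zfp820 passed in all 6, Zfp644 in 5, Zfp950, Zfp760 and Zfp961 in 4, Zfp512 in 3, Zfp809, Zfp65, Zfp931 and Zfp467 in 2, and Zfp959, Zfp101, Zfp119a, Zfp119b, Zfp882, Zfp758, Zfp932, Zfp207 and Zfp395 in 1.

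Falls were found both in members with a KRAB box and in members without one. Of 168 KRAB members tested, 37 fell and 4 rose, with a median log2 fold change of -0.129, and of 127 without a KRAB box, 30 fell and 4 rose, with a median of -0.121. In siDDX1, 21 KRAB members fell and 1 rose, with a median of -0.135, and 10 of the others fell and 3 rose, with a median of -0.075. These counts depended on single libraries. With 1 library left out, the KRAB falls ran from 18 to 45 in siEXOSC3 and from 1 to 50 in siDDX1. Over all genes, 15.7% fell and 16.7% rose in siEXOSC3 and 5.03% fell and 5.61% rose in siDDX1. The difference between the subgroups was not tested. Their base composition differed, with a median GC content of exons of 43.2% in KRAB members and 50.9% in the others, against 49.9% over all genes tested. Across 296 members the siDDX1 change was related to GC content (Pearson r = 0.48, Spearman rho = 0.51), with the larger falls in GC-poor genes, and the siEXOSC3 change less so (r = 0.15, rho = 0.15). These genes share libraries and cluster by sequence, so the coefficients are descriptions. With a trend on GC content and length removed from each library, 18 KRAB members fell in siDDX1 (median -0.092) and 11 of the others did (median -0.071), so that the medians drew closer. In siEXOSC3 the same removal gave 35 and 37 falls, with medians of -0.102 and -0.129.

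**Figure D4:**
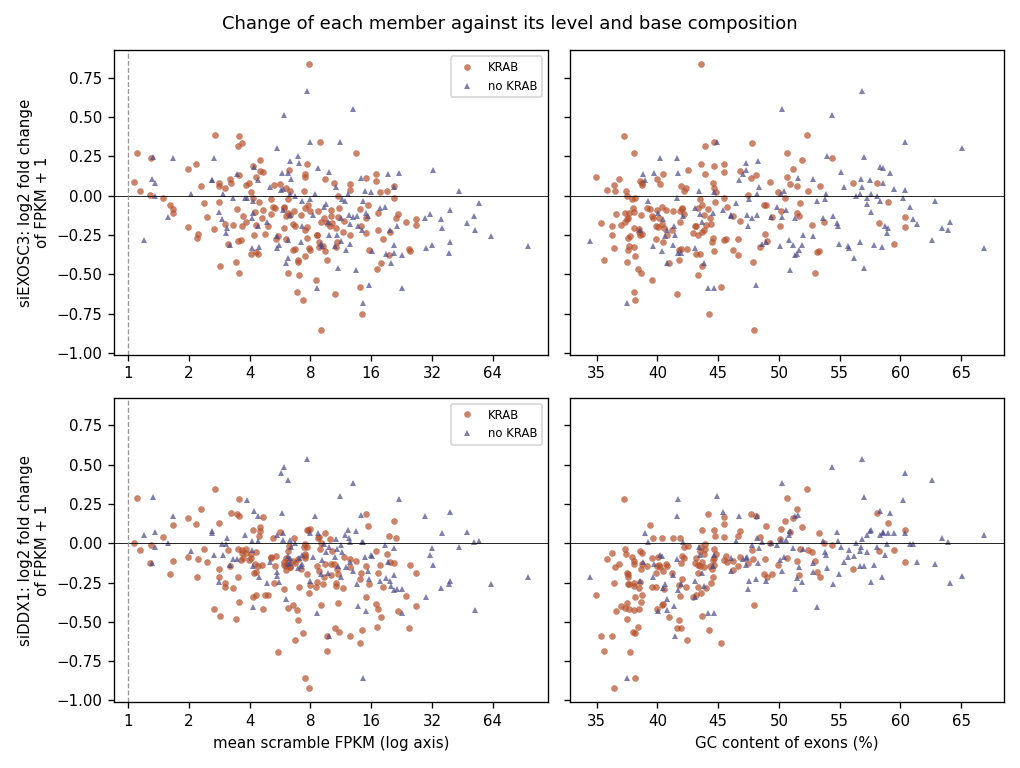
Log2 fold change of each tested member with an annotated coding transcript (vertical axis, FPKM + 1) against its mean scramble FPKM (left, log axis, with the dashed line at the limit of 1 FPKM) and the GC content of its exons (right, percent), with circles for KRAB members and triangles for the others, and siEXOSC3 above and siDDX1 below. The siDDX1 values rise with GC content (r = 0.48), while the siEXOSC3 values do so less (r = 0.15).

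By place in the genome, chromosome 17 had the most falls in siDDX1. Of its 41 members, 36 of them with a KRAB box, 10 fell in siEXOSC3 and 10 in siDDX1 (24.4% each) and 0 rose, whereas 13.9% and 6.27% of all genes tested on that chromosome fell and 16.1% and 5.90% rose. With 1 library left out, the count of 10 ran from 6 without scramble replicate 2 to 14 without siEXOSC3 replicate 2 in siEXOSC3. In siDDX1 it was 1 without scramble replicate 1 or 3, 3 without scramble replicate 2 or siDDX1 replicate 1 or 2, and 18 without siDDX1 replicate 3. The median log2 fold change of these members was -0.143 in siEXOSC3 and -0.175 in siDDX1. Chromosome 7, which holds the most members, had 15 falls in siEXOSC3 and 4 in siDDX1 among 77 tested, against 11.3% and 2.84% of its genes. The largest cluster, with members no more than 500 kb apart, was chr17:21145905-23736454, with 20 members, all KRAB genes, including Zfp760, Zfp820 and Zfp758. In siDDX1, 19 of these 20 had a log2 fold change below 0 and 5 fell, with a median of -0.268, and in siEXOSC3, 15 were below 0 and 4 fell, with a median of -0.143. Altogether 13 clusters of at least 5 members held 125 members, of which 29 fell in siEXOSC3 (23.2%) and 12 in siDDX1 (9.6%), close to the 23.0% and 10.8% over all members tested.

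**Figure D5:**
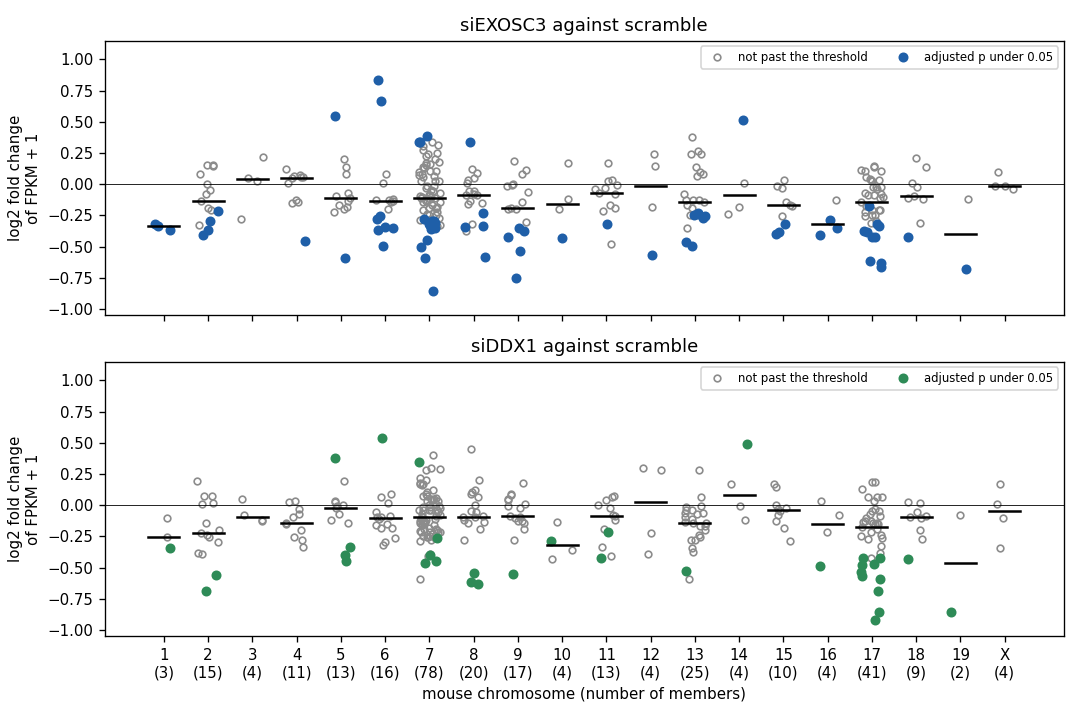
Log2 fold change of each tested member (vertical axis, FPKM + 1) by mouse chromosome (horizontal axis, number of members in parentheses) in siEXOSC3 (above) and siDDX1 (below), with filled points for adjusted p under 0.05, open points for the rest and black bars for the median per chromosome. On chromosome 17, 10 members fell in each knockdown and 0 rose, with medians of -0.143 and -0.175; the horizontal spread within a chromosome is random.

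Among members with roles outside KRAB silencing, the list of chromatin cofactors held 5 of the falls in siEXOSC3. All 10 were tested, so that 5 of 10 fell in siEXOSC3 and 1 of 10 in siDDX1, against 15.7% and 5.03% of all genes, and 0 rose in siEXOSC3. The count of 5 depended on single libraries, since 2 of the 10 fell without scramble replicate 1, 3 without scramble replicate 2, scramble replicate 3 or siEXOSC3 replicate 1, 4 without siEXOSC3 replicate 3 and 6 without siEXOSC3 replicate 2. Without scramble replicate 1, the limma adjusted p of Zfp410 was 0.0544. Zfp384 passed at a limma adjusted p of 0.0492 with all libraries and was lost in 5 of the 6 fits with 1 library left out, at up to 0.158. Zfp644, a partner of the histone methyltransferases G9a and GLP, stood at 23.5, 23.4 and 21.6 FPKM in scramble and at 14.7, 16.4 and 13.4 FPKM in siEXOSC3 (log2 fold change -0.59, limma adjusted p = 0.00272). In siDDX1 it stood at 15.1, 16.6 and 17.3 FPKM, below 23.3, 23.2 and 21.3 FPKM in scramble (log2 fold change -0.44, limma adjusted p = 0.0117). Zfp410, an activator of the NuRD subunit gene Chd4, fell in siEXOSC3 from 16.3, 15.7 and 15 FPKM to 11.4, 11.7 and 8.02 FPKM (log2 fold change -0.57, limma adjusted p = 0.0128), and the SUMO ligase Zfp451 fell by 0.36 on the log2 scale (limma adjusted p = 0.00568).

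Some of the members listed for roles in RNA, ribosomes or protein quality also fell. Of 8 tested, 4 fell in siEXOSC3 and 1 in siDDX1, against 15.7% and 5.03% of all genes, and 0 rose. The siDDX1 fall was that of Zfp207, described above as a kinetochore and spindle protein. With 1 library left out, 1 to 5 of the 8 fell in siEXOSC3 and 0 to 3 in siDDX1. Zfp207, the most highly expressed member, fell from the scramble values above to 75.7, 77.5 and 76.9 FPKM in siEXOSC3 and, from 93.8, 97.7 and 94.2 FPKM, to 78.9, 85.0 and 81.5 FPKM in siDDX1, which are 79.8% and 85.9% of scramble (log2 fold changes -0.32 and -0.22, limma adjusted p = 0.00568 and 0.0468). Zfp622, a factor of the large ribosomal subunit, Zfp638 and the double-stranded RNA-binding Zfp346 fell in siEXOSC3 by 0.32, 0.25 and 0.25 on the log2 scale (limma adjusted p = 0.0194, 0.0422 and 0.0375). With a library left out, the call of Zfp622 passed in 2 of 6 fits, and those of Zfp638 and Zfp346 passed in 1 of 6 each.

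The mRNA decay factors of the CCCH type bind AU-rich elements, and 2 of the 4 were tested. Zfp36l2 stood at 48.8, 47.9 and 47.0 FPKM in scramble and at 42.1, 42.3 and 43.0 FPKM in siEXOSC3, a small fall at the edge of the threshold (log2 fold change -0.17, limma adjusted p = 0.0498). With a library left out, this call of Zfp36l2 passed in 1 of 6 fits. Zfp36 overlapped scramble in both knockdowns, but without siEXOSC3 replicate 2 it passed as a rise in siEXOSC3. Of 4 promoter-binding or pluripotency factors tested, Zfp148 and Zfp281 fell in siEXOSC3 by 0.35 and 0.33 on the log2 scale and Zfp281 fell in siDDX1 by 0.34 (limma adjusted p = 0.00791, 0.0235 and 0.0362), where 15.7% and 5.03% of all genes fell. With a library left out, the calls of Zfp281 passed in 2 of 6 fits in siEXOSC3 and in 1 of 6 in siDDX1. Zfp143, a promoter activator that also takes part in chromatin looping, was higher without passing the test, at 13.9, 12.3 and 17.9 FPKM in siEXOSC3 against 11.6, 11 and 11.2 FPKM in scramble (log2 fold change 0.34, limma adjusted p = 0.0613). None of the 7 neural development genes tested, among them Zfp292, Zfp503 and Zfp703, passed in either knockdown by limma, and with so few genes nothing is read from this count against the 15.7% and 16.7% of all genes that fell and rose in siEXOSC3 and the 5.03% and 5.61% in siDDX1.

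The machinery that KRAB proteins recruit was examined from a separate list of 27 genes, all tested. In siEXOSC3, 8 fell and 1 rose, and in siDDX1, 0 fell and 1 rose, with medians of -0.115 and -0.102. The falls were 29.6% of the list in siEXOSC3, where 15.7% of all genes fell and 16.7% rose, and in siDDX1 5.03% of all genes fell and 5.61% rose. With 1 library left out, the falls of the list ran from 3 to 10 in siEXOSC3. In siDDX1 they were 0 in every such fit except without siDDX1 replicate 3, where 8 fell. Trim28, the shared corepressor, stood at 93.5, 93.5 and 96.4 FPKM in scramble and at 71.4, 76.4 and 63.0 FPKM in siEXOSC3 (log2 fold change -0.43, limma adjusted p = 0.00648). In the DDX1 table it stood at 92.7, 92.7 and 95.2 FPKM in scramble and at 91.5, 83.7 and 86.9 FPKM in siDDX1, all below scramble but without passing the test (log2 fold change -0.10, limma adjusted p = 0.283). Morc2a, Smarcad1, Dnmt3b and Mta2 fell in siEXOSC3, with log2 fold changes between -0.41 and -0.33. With a library left out, the calls of Trim28, Morc2a and Mta2 passed in every fit, that of Smarcad1 was lost in 4 of 6 (limma adjusted p between 0.069 and 0.113) and that of Dnmt3b in 5 of 6 (limma adjusted p between 0.0673 and 0.129). Mta1, a NuRD subunit, rose in both, with log2 fold changes of 0.32 and 0.27 (limma adjusted p = 0.0245 and 0.0498). Its siDDX1 call, at the edge of the threshold, was lost with any 1 library left out except siDDX1 replicate 3, and its siEXOSC3 call was lost without scramble replicate 1 or 3 or siEXOSC3 replicate 1 (limma adjusted p between 0.0618 and 0.103).

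Related families that the symbol rule leaves out were set beside these genes. Of 36 Zbtb genes tested, which pair C2H2 fingers with a BTB domain, 12 fell (33.3%) and 4 rose in siEXOSC3. In siDDX1, 3 of them fell (8.33%) and 1 rose, and the medians were -0.125 and -0.110. Of 18 Zkscan and Zscan genes, 5 fell (27.8%) and 3 rose in siEXOSC3. In siDDX1, 2 of them fell (11.1%) and 0 rose, and the medians were -0.193 and -0.016. Of 11 Klf genes, 2 fell and 2 rose in siEXOSC3 and 1 fell in siDDX1, with medians of 0.159 and -0.010. For comparison, 15.7% of all genes fell and 16.7% rose in siEXOSC3, and 5.03% fell and 5.61% rose in siDDX1, so that the Klf shares in siEXOSC3 (18.2% each way) were near those of all genes. In siEXOSC3, the Zbtb and the Zkscan and Zscan shares that fell were above the 23.0% of Zfp members. Falls were thus not particular to the Zfp members. Of these families 11.1% and 16.7% rose there, against 2.62% of Zfp members. With 1 library left out, Zbtb falls ran from 5 to 11 in siEXOSC3 and from 0 to 9 in siDDX1. Those of Zkscan and Zscan genes ran from 1 to 5 and from 0 to 2. No difference between the families was tested.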

How the data were processed

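RNA from the 9 N2A cultures was depleted of ribosomal RNA and sequenced as nondirectional paired reads, so opposite strands are not told apart (56 members overlap an annotated gene on the other strand). Per the labels and the study's methods, the authors aligned reads to mm9 with TopHat2 version 2.1.0 and deposited FPKM from Cuffdiff version 2.2.1 in 2 tables, each with 1 knockdown and the 3 scramble libraries. The annotation and Cuffdiff's library normalization are not given in the sources used here. The tables were scaled separately, so tests stay within a table, and absolute depth is unknown. The fold change and p-value columns that the authors deposited were not used.

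From the deposited FPKM, log2(FPKM + 1) was tested with limma version 3.58.1 (R version 4.3.3, intensity trend, no covariates) where a gene averaged 1 FPKM or more across the 6 libraries. P-values were two-sided, adjusted over all genes tested (Benjamini-Hochberg) and called at under 0.05. The pseudocount makes the changes of low genes look smaller. A simulation gave 200 genes a log2 shift of 1. The fit called 92% of them in the siEXOSC3 comparison and 92.5% in the siDDX1 comparison, 0 with the wrong sign. The changes of all members tested were smaller, from -0.85 to 0.84 in siEXOSC3 and from -0.92 to 0.54 in siDDX1. How many changes of such sizes the fit recovers was not tested. Positions, fingers, KRAB boxes (HMMER version 3.4, MAFFT version 7.526) and shared words came from GENCODE vM1 on NCBIM37; 294 members matched by symbol and 3 by synonym. Promoters came from RefSeq on GRCm38.p6. Python version 3.11.15 and matplotlib version 3.10.9 were used for summaries and figures.

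Members, gene lists and tests were chosen with earlier results of these data known. The genes named were the 10 highest in scramble, the 8 largest rises and falls among called members with non-overlapping groups in each knockdown, the 6 with the largest smaller change in both, up to 4 of each role list, up to 6 of the corepressor list, and 3 on each side of the level limit. Clusters, level bins, chromosomes, shared words and the sequences shown were chosen after values were seen. Other settings tried were no level filter, a filter at 5 FPKM, a pseudocount of 0.1, median centring, quantile normalization, subtracting from each library a loess curve (span 0.3) fitted to GC content and length, no intensity trend, the replicate block, an adjusted p under 0.01, other level rules for members, and leaving out each library.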

Additional observations from a re-analysis of the deposited data

Results flagged for a closer look

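Zfp9, Zfp787 and Zfp36l2 are singled out because all 3 siEXOSC3 libraries lay on one side of scramble and all 3 siDDX1 libraries on the other; the difference between the knockdowns was not tested. The log2 fold changes of Zfp9 were 0.84 in siEXOSC3 and -0.32 in siDDX1. Those of Zfp787, chosen by this criterion after its values were seen, were -0.28 in siEXOSC3, from 5.56, 6.42 and 6.67 FPKM to 4.73, 4.85 and 5.18 FPKM, and 0.40 in siDDX1, from 5.51, 6.37 and 6.59 FPKM to 9.80, 7.62 and 8.03 FPKM. Those of Zfp36l2 were -0.17 in siEXOSC3 and 0.070 in siDDX1, where it stood at 49.0, 49.8 and 50.8 FPKM against 48.4, 47.5 and 46.5 FPKM in scramble. By limma, Zfp787 passed in siEXOSC3 (adjusted p = 0.0427) and not in siDDX1 (adjusted p = 0.0503).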

How the results depend on the processing

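Falls outnumbered rises among the members in both knockdowns under every alternative, while the number called moved widely when a library was left out. With each library left out in turn, between 32 and 102 members passed in siEXOSC3 (3 to 16 rose, 29 to 86 fell) and between 1 and 95 in siDDX1 (0 to 12 rose, 1 to 83 fell). The members' median log2 fold change lay between -0.150 and -0.102 in siEXOSC3 and between -0.141 and -0.082 in siDDX1. Members with non-overlapping groups numbered 145 to 177 in siEXOSC3 (119 to 139 all below scramble) and 119 to 182 in siDDX1 (99 to 148 all below); with 2 libraries in a group fewer values can overlap. Exosc3 stayed between -2.60 and -2.45 and Ddx1 between -2.10 and -1.95. At an adjusted p under 0.01, 28 members passed in siEXOSC3 (3 rose, 25 fell) and 3 in siDDX1 (0 rose, 3 fell). Quantile normalization moved the siEXOSC3 median to -0.160. In siDDX1, 7 members rose with median centring and 7 with the GC and length trend removed, and without a filter, where more genes are tested, 14 passed (1 rose, 13 fell). The causes of the other moves were not tested.

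Pairing by replicate number was not taken as shown, since not every same-numbered pair deviated together: same-numbered siEXOSC3 and scramble libraries deviated with correlations of 0.035, -0.310 and -0.126, and siDDX1 and scramble with -0.012, 0.379 and 0.372, where siDDX1 replicates 2 and 3 correlated best with their own number. With the replicate block, 50 members passed in siEXOSC3 (5 rose, 45 fell) and 53 in siDDX1 (6 rose, 47 fell).

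Over the named genes and alternatives, 958 values kept their direction and side of the threshold, 191 lost the threshold and 17 gained it. In 14 cases the sign turned, in each for a change that was past the threshold in neither fit. Leaving out single libraries carried Zfp292 (from -0.287 to 0.028) and Zfp703 (from -0.104 to 0.155) across 0 in siEXOSC3. It did the same in siDDX1 for Dnmt3b (from -0.105 to 0.029), Morc2a (from -0.015 to 0.035), Zfp346 (from -0.082 to 0.00016) and Zfp503 (from -0.082 to 0.066). Removing the GC and length trend gave -0.092 for Zfp703 in siEXOSC3 and 0.0070 for Zfp148 in siDDX1, quantile normalization gave -0.024 for Zfp703 in siEXOSC3, and median centring gave 0.021 for Zfp503 in siDDX1.

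FPKM carry no read number, so depth cannot be used to weigh low genes.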
